A study of Mus musculus with 18 samples.

Results

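The Zfp genes described here are the mouse genes whose symbol is Zfp followed by a number and that were listed in the choroid, the retina and the brain table of the study. There were 259 of them among the 10505 genes listed in all 3 tables, and 333 such symbols stood in at least 1 table. Of the 74 that fell outside, 47 were listed in retina and brain, 17 in retina alone, 8 in brain alone, 1 in choroid alone and 1 in choroid and brain. The symbol says only that a protein is named for a zinc finger, and the set is not 1 family. In 11 members the common kind of finger (C2H2, described below) was not found by pattern. Among these are 3 that carry fingers of another kind, CCCH.

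Every library came from Tie2-cre+; NuTRAP+ mice, in which the Tie2 promoter, active in endothelium and also in blood-lineage cells, drives Cre recombinase, and Cre switches on a GFP-tagged ribosomal protein. Choroid (with the retinal pigment epithelium), a pool of 2 retinae, or brain tissue was homogenised, an aliquot of the lysate was kept as the input, and ribosomes were pulled down from the remainder with an antibody to GFP to give the positive fraction, whose RNA is enriched for that of the tagged cells. There were 3 libraries, numbered 421, 953 and 960, in each of 6 groups, which are choroid input, choroid positive, retina input, retina positive, brain input and brain positive. All groups carried both alleles and there was no group without Cre. The tables further mark every library as WT and the experiment as NT, abbreviations that the labels do not explain, and no source used here gives age or sex. Nothing in the labels says that the 3 numbers stand for separate animals, so the p-values measure the spread between these libraries.

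Most mammalian zinc finger genes encode C2H2 proteins, in which a pair of cysteines and a pair of histidines hold a zinc ion and the finger reads DNA. Many of them carry a KRAB box, through which they recruit the corepressor Trim28 and a histone methyltransferase, and they silence retrotransposons and other targets. The CCCH proteins are different: Zfp36 (tristetraprolin) and its relatives Zfp36l1 and Zfp36l2 bind AU-rich elements in messenger RNAs and bring in the CCR4-NOT deadenylase, which shortens the life of those messages, and Zfp36l1 is known for its part in vascular development.

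The coding bases of the first finger are shown for the CCCH genes, whose enrichment is described first below, with the codons of the zinc-binding cysteines and histidine in capitals, 5′ to 3′, read from the GENCODE transcripts of mm10.
Zfp36: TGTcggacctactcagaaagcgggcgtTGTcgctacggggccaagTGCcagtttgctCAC
Zfp36l1: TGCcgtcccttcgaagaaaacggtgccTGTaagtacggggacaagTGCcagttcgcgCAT
Zfp36l2: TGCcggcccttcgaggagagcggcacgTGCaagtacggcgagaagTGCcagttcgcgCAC
These 60 bases lie in exon 2 of each gene, on the minus strand, at chr7:28378158-28378217, chr12:80110189-80110248 and chr17:84186668-84186727. Zfp36l1 and Zfp36l2 shared 49 of the 60 bases (81.7%), Zfp36 and Zfp36l1 shared 42 (70.0%), and Zfp36 and Zfp36l2 shared 40 (66.7%).

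For contrast, the first canonical C2H2 finger is shown for the members whose enrichment is described next to the CCCH genes, with the same codons in capitals.
Zfp710: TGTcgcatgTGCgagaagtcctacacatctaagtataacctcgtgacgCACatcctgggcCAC
Zfp52: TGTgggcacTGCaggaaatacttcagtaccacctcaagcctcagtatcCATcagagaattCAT
Zfp691: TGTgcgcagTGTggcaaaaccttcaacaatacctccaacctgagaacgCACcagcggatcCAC
They lie at chr7:80081971-80082033 on the plus strand (exon 2), chr17:21560453-21560515 on the plus strand (exon 5) and chr4:119170719-119170781 on the minus strand (exon 2). Among the members, 257 were listed as protein-coding. A KRAB A box was found by pattern in 126 and not in 131, and 2 gave no coding sequence. The number of C2H2 finger motifs had a median of 10 and reached 37, and 3 members had CCCH motifs. Chromosome 7 held 59 members, chromosome 17 held 34, chromosome 8 held 22 and chromosome 9 held 16. Many of these genes are close copies of their neighbours, and reads they share could have been split between them by the authors' counting.

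Library totals ran from 2649016 counts in choroid positive 960 to 32064311 in brain input 421. Brain input 960 stood apart from its group: its log counts correlated at 0.907 and 0.909 with the other brain inputs, which correlated at 0.994 with each other. All 10 endothelial marker genes were called higher in the positive fraction in choroid and in brain, and 9 of 10 in retina. Markers of microglia and macrophages, cells in which the Tie2 promoter can be active, also moved: 7 of 8, 5 of 5 measured and 8 of 8 were called higher. In CPM, a gene's counts over the library's total on the usual common scale, their summed level was 15400 to 22220 in choroid positive and 1595 to 2680 in choroid input, 152 to 695 in retina positive and 27.7 to 33.8 in retina input, and 3834 to 4862 in brain positive and 276 to 437 in brain input. Their part in the results below was not tested. The choroid libraries 421 stood apart in oligodendrocyte markers, of which 3 of 6 were measured, at 5184 CPM in input and 1518 in positive, beside 198 and 294 in the other inputs and 96.9 and 158 in the other positives. Without both choroid fractions of 421, 9 members were called higher and 47 lower in choroid, beside 2420 and 2362 of all genes. The positive libraries of the retina still held 20200 to 32640 CPM of the 6 photoreceptor markers against 33210 to 34610 in the inputs. In these bulk samples, fewer cells of a type and less RNA per cell cannot be told apart.

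Together the members made up a small share of the counts, highest in retina. It was 0.764% to 0.833% in choroid input and 0.515% to 0.608% in choroid positive. It was 1.38% to 1.39% in retina input and 1.27% to 1.38% in retina positive, and 0.655% to 0.819% in brain input and 0.705% to 0.723% in brain positive. The choroid fractions did not overlap, the choroid and brain inputs did, and every retina library lay above every choroid and brain library. A gene entered a table when all libraries of at least 1 fraction reached 50 counts. Level and library depth both bear on that. Choroid positives held 2649016 to 4587800 counts in total, and choroid inputs 8807208 to 14483964. In choroid 78 members reached the minimum in both fractions and 181 only in the input, beside 7536 and 4082 of all 11718 genes. In retina the numbers were 247 and 12, beside 10734 and 1308 of 12369. In brain 239 reached it in both fractions and 20 only in the positive one, beside 11148 and 1601 of 12919. A member listed through 1 fraction alone had a low count in at least 1 library of the other by construction. Of the 59 members called lower in choroid, 42 were listed through the input alone, and of the 28 called higher in brain, 5 through the positive fraction alone, so these counts describe the members and support nothing further.

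Levels per kilobase of exon, averaged over all 18 libraries, ran from 0.954 to 188 CPM per kilobase over 258 members with a median of 5.41. Zfp385a, an RNA-binding modulator of p53 responses, was highest at 188, with 481 in retina input and 42.5 in choroid positive. Zfp36l2 followed at 55.2 and Zfp937 at 45.6. Zfp706, which keeps the Klf4 gene in check in embryonic stem cells, stood at 42.3 and Zfp365, a protein of genome stability with high expression in neurons, at 39.0. Zfp36l1 (35.5), Zfp445 (32.3), Zfp869 (31.6), Zfp740 (29.9) and Zfp106 (28.2) completed the 10 highest by CPM per kilobase. These means pool groups that differ: Zfp36l1 ran from 6.21 in retina input, where it ranked 152 among the members, to 75.5 in choroid positive, where it ranked 1. Zfp36l2 ranked 2 in both choroid fractions and in retina input and 40 in brain input, and Zfp365 ranked 1 in brain input and 244 in choroid positive.

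Zfp36 had the highest enrichment of all members in brain and in choroid and was called higher in all 3 tissues. A gene is called here when its Benjamini-Hochberg adjusted p in edgeR's quasi-likelihood test is under 0.05, and CPM are scaled by the trimmed mean of M-values within a tissue. In brain, Zfp36 stood at 5.64, 5.88 and 5.09 CPM in the inputs 421, 953 and 960 and at 56.5, 77.6 and 55.4 CPM in the positive libraries. The fractions were far apart, and the log2 fold change was 3.50 ± 0.20 (SE, n = 3 a fraction, edgeR adjusted p = 4.63e-05). Zfp36 was listed in brain through the positive fraction alone, with 47 counts in its lowest input library against 1355 in its lowest positive one. Without brain input 960 its log2 fold change was 3.45 ± 0.19 (edgeR adjusted p = 1.03e-05). In choroid it stood at 39.4, 31.2 and 51.3 CPM in input and at 79.2, 143.5 and 115.3 CPM in positive, a log2 fold change of 1.47 ± 0.27 (edgeR adjusted p = 0.00312). The fractions did not overlap there, but the choroid input was higher than the brain input by 2.75 on the log2 scale over all 18 libraries. In retina it stood at 7.48, 6.87 and 6.91 CPM in input and at 21.5, 22.2 and 15.7 CPM in positive, with a log2 fold change of 1.47 ± 0.19 (edgeR adjusted p = 0.000572) and no overlap. The choroid call was lost only when both fractions of 953 were left out (1.10, edgeR adjusted p = 0.0554).

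Zfp36l1 behaved differently by tissue. In brain it stood at 25.6, 24.9 and 33.6 CPM in input and at 117.6, 147.2 and 105.3 CPM in positive, and in retina at 14.5, 17.2 and 21.4 CPM in input and at 81.2, 63.1 and 51.7 CPM in positive. The fractions were well apart in both, with log2 fold changes of 2.14 ± 0.20 in brain (edgeR adjusted p = 0.000296; 2.29 without brain input 960) and 1.88 ± 0.20 in retina (edgeR adjusted p = 0.000211), the highest of any member in retina. In choroid it stood at 153.4, 140.6 and 147.4 CPM in input and at 249.2, 166.4 and 178.9 CPM in positive. Although these did not overlap, the log2 fold change of 0.43 ± 0.19 was not called (edgeR adjusted p = 0.0978), and with the replicate number as a block it was (0.41, adjusted p = 0.0282).

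Zfp36l2 was called higher in brain alone. It stood there at 34.6, 31.2 and 27.7 CPM in input and at 88.2, 109.8 and 89.8 CPM in positive (log2 fold change 1.62 ± 0.16, edgeR adjusted p = 0.000409; 1.54 without brain input 960). In choroid its fractions overlapped, with 199.5, 232.8 and 173.7 CPM in input and 252.1, 224.4 and 149.2 CPM in positive, and the log2 fold change was 0.05 ± 0.22 (edgeR adjusted p = 0.876). In retina every positive library, at 228.7, 266.2 and 245.3 CPM, lay under every input, at 310.9, 295.5 and 293.4 CPM, and the log2 fold change of -0.28 ± 0.10 was not called (edgeR adjusted p = 0.0691; 0.0306 by DESeq2). These inputs in choroid and retina were 2.67 and 3.11 higher than in brain on the log2 scale over 18 libraries.

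**Figure D1:**
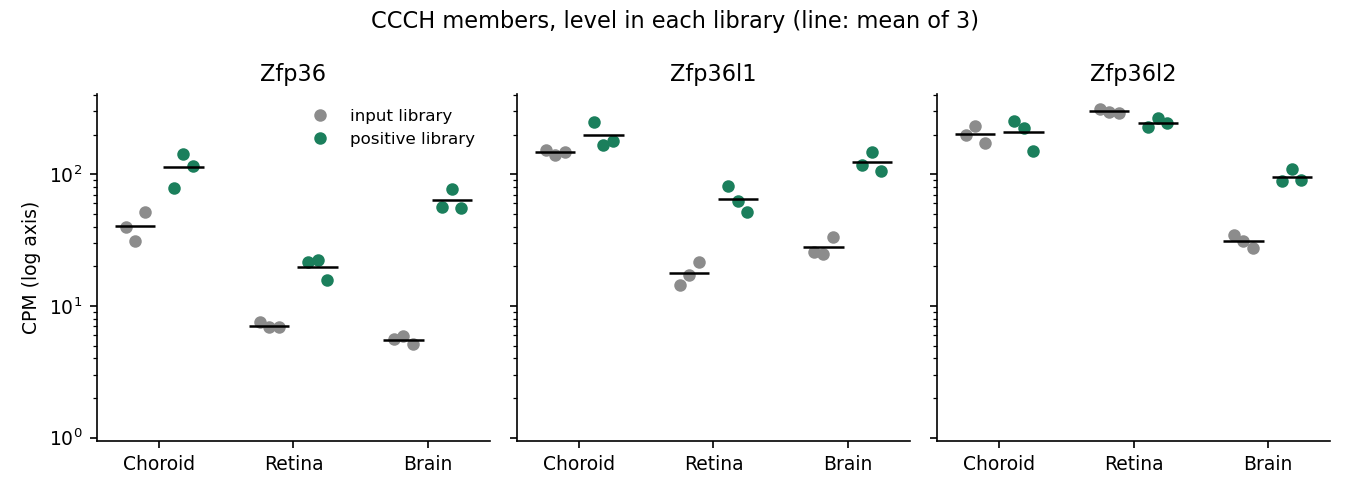
Level of Zfp36, Zfp36l1 and Zfp36l2 in CPM on a log axis, for the 3 input (grey) and 3 positive (green) libraries of each tissue, with lines at the means. In brain the positive libraries of each gene lie above its inputs, while Zfp36l2 overlaps between fractions in choroid and is lower in the retina positives.

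The differences between tissues in the enrichment of the CCCH genes were tested as interactions over all 18 libraries, with brain, choroid and retina libraries each entering 2 of the 3 differences. The enrichment of Zfp36 was lower in choroid than in brain by 1.86 ± 0.32 on the log2 scale, coded as -1.86 (edgeR adjusted p = 0.000411), and lower in retina than in brain, at -1.88 ± 0.32 (edgeR adjusted p = 0.0015). Between choroid and retina it differed by 0.02 ± 0.34 (edgeR adjusted p = 0.98). For Zfp36l1 choroid stood apart: choroid minus brain was -1.54 ± 0.29 (edgeR adjusted p = 0.000941) and choroid minus retina -1.42 ± 0.29 (edgeR adjusted p = 0.00172), while retina minus brain was -0.12 ± 0.29 (edgeR adjusted p = 0.812). For Zfp36l2 brain stood apart, with choroid minus brain at -1.40 ± 0.25 (edgeR adjusted p = 0.000664), retina minus brain at -1.75 ± 0.25 (edgeR adjusted p = 0.000289) and choroid minus retina at 0.36 ± 0.25 (edgeR adjusted p = 0.302).

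In level, the CCCH genes of the positive libraries followed another order. Over the 9 positive libraries, Zfp36 was at 84.5, 151.2 and 122.6 CPM in choroid, 56.7, 77.6 and 56.0 CPM in brain and 22.7, 23.7 and 16.6 CPM in retina. No 2 tissues overlapped, and each step passed the test: choroid over brain 0.91 ± 0.22 log2 (edgeR adjusted p = 0.00515) and retina over brain -1.60 ± 0.23 log2 (edgeR adjusted p = 8.01e-05). Zfp36l1 kept the same order of tissues, at 265.9, 175.2 and 190.3 CPM in choroid, 118.2, 147.2 and 106.3 CPM in brain and 85.7, 67.4 and 54.6 CPM in retina. Choroid over brain was 0.77 ± 0.21 log2 (edgeR adjusted p = 0.0105), a call that ended without brain positive 960 (adjusted p = 0.052), and retina over brain was -0.84 ± 0.21 log2 (edgeR adjusted p = 0.00433). Zfp36l2 was lowest in brain, at 88.6, 109.8 and 90.7 CPM, with 269.0, 236.3 and 158.7 CPM in choroid and 241.3, 284.5 and 259.2 CPM in retina. Both eye tissues were called higher than brain, by 1.20 ± 0.20 log2 and 1.44 ± 0.20 log2 (edgeR adjusted p = 0.000295 and 5.09e-05), and choroid and retina overlapped (-0.24 ± 0.20 log2, edgeR adjusted p = 0.289).

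Zfp36 is an immediate early gene, one of those switched on within minutes of a stimulus, and others of that list were also called higher. Of the immediate early genes measured, 11 of 13 were called higher in choroid positive (median log2 fold change 1.78) and none lower. The count was 6 of 14 in retina (median 0.42), with none lower, and 9 of 14 in brain (median 1.36), with Egr1 lower (-1.11 log2, adjusted p = 0.00276). Beside them, all genes tested had medians of -0.03, -0.01 and -0.07. Klf2 and Klf4, which are also known as genes of endothelium under flow, had the highest log2 fold changes of the list in retina (6.10 and 6.08) and in brain (5.00 and 5.05). In choroid Klf2 was highest at 3.44, and Ier2 and Nr4a1 at 2.82 and 2.66 stood above Klf4 at 2.46. Among the genes of CCR4-NOT, decapping and AU-rich element binding, 5 of 21 were called higher and 2 lower in choroid, 3 and 7 in retina, and 4 and 1 in brain, with median log2 fold changes of 0.11, -0.16 and 0.22. In choroid and brain the counts called higher were near the shares of all genes just given.

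The 250 bases before the RefSeq start site are shown for the CCCH genes that moved most, in GRCm38.p6, with motif matches in capitals.
Zfp36: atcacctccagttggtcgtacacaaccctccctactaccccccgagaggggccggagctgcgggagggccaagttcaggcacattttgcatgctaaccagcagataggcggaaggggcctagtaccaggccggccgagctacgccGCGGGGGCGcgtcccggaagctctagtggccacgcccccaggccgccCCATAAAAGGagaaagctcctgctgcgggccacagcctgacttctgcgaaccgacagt
Zfp36l1: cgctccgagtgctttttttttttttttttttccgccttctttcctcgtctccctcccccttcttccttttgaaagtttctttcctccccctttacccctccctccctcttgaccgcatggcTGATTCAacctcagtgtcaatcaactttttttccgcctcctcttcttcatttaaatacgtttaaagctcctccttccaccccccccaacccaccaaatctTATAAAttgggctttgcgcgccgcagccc
They lie on the minus strand at chr7:28379229-28379478 and chr12:80113014-80113263. The motifs searched, on both strands, were AP-1 (TGANTCA), CRE (TGACGTCA), the CArG box of serum response factor, EGR (GCGNGGGCG) and the TATA box (TATAAA), and no match overlapped another. Zfp36 held an EGR match beginning 105 bases before the start and a CArG box beginning 58 bases before it. Of 27025 genes with such a window, 5.33% held an EGR match and 1.62% a CArG box. Zfp36l1 held an AP-1 match beginning 129 bases before the start and a TATA box beginning 29 bases before it, motifs found in 7.82% and 14.3% of genes. A CRE was found in 1.77% of genes and in neither window. Among the 208 members with an entry, 4.33% held AP-1, 4.33% CRE, 0.962% a CArG box, 6.73% EGR and 6.73% a TATA box. These matches are descriptions of the letters.

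Beyond the CCCH genes, few Zfp genes were called higher in the positive fraction of the choroid. Of the 259, 10 (3.86%) were called higher and 59 (22.8%) lower in choroid positive against input, where 21.1% of the 11718 genes tested were called higher and 20.9% lower. The median log2 fold change was -0.40 over the members and -0.03 over all genes. In retina 26 members (10.0%) were called higher and 43 (16.6%) lower, against 18% and 13.7% of all genes, with medians of -0.09 and -0.01. In brain 28 (10.8%) were called higher and 33 (12.7%) lower, against 21.2% and 18.3%, with medians of -0.11 and -0.07. The share called higher was under that of all genes in each tissue. The share called lower was near that of all genes in choroid, above it in retina and under it in brain. These sets were unlike: members were listed in every table, and all genes were those of the tissue's own table. When all libraries were fitted together, both sets were limited to the 10505 genes listed in every table. Called higher were then 16, 14 and 23 members in choroid, retina and brain, beside 2447, 1443 and 1926, a smaller share throughout. Called lower were 93, 25 and 78, beside 2612, 676 and 3122, a larger share in choroid and retina and near in brain. With the replicate number as a block, 15 members were called higher and 81 lower in choroid, beside 3223 and 3412 of all genes. Scaled by library totals instead, the choroid counts were 4 higher and 88 lower, with 1756 and 3340 of all genes in place of 2471 and 2451, and that scaling moved the median over all genes to -0.26.

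**Figure D2:**
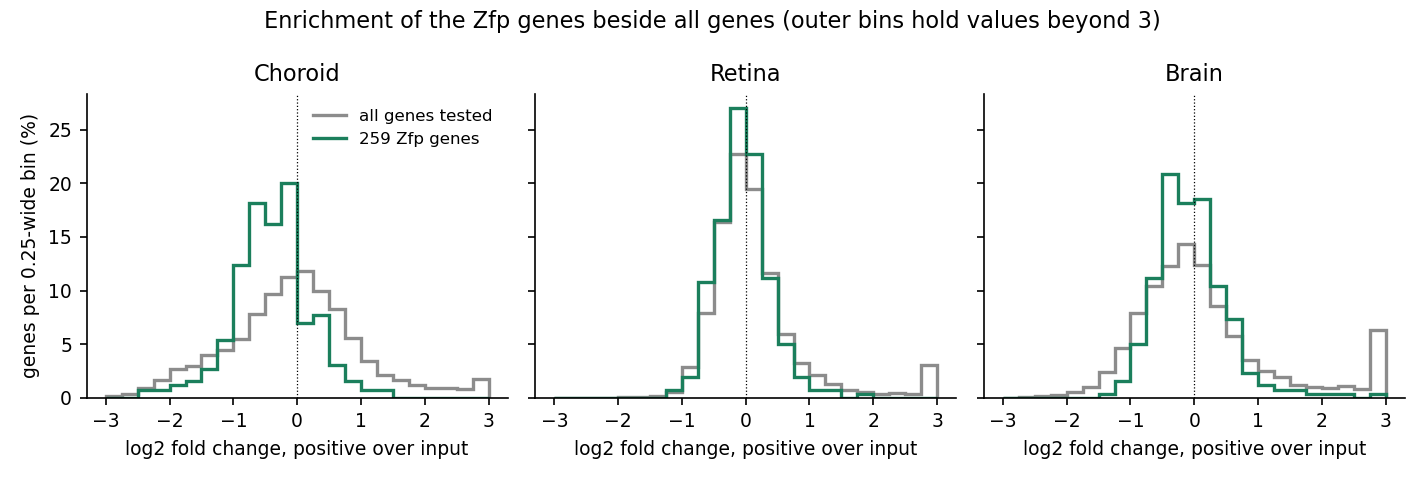
Distribution of log2 fold changes of positive over input in each tissue, as the percent of genes per bin, for the 259 Zfp genes (green) and all genes tested (grey). The Zfp genes are shifted to lower values in choroid, where their median was -0.40, and reach the right-hand end in brain with Zfp36.

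These counts leaned on single libraries, as did those of all genes. In choroid, 5 members were called higher and 27 lower without input 953, and 6 and 36 without positive 953. Leaving out input 421 gave 7 and 36, and leaving out input 960 gave 5 and 42. Without both fractions of 953 there were 1 and 13, and without both of 960 there were 4 and 28. Over all genes these choroid settings gave 1066 to 2185 higher and 906 to 2072 lower. The lowest counts came without both of 953 and the highest without input 960. In retina, leaving out input 421, 953 or 960 gave 11, 12 and 10 higher and 25, 20 and 21 lower. Without retina positive 953 there were 12 and 29, without positive 960 there were 51 and 53, without both fractions of 421 there were 15 and 38, and without both of 953 there were 3 and 7. Over all genes these retina settings gave 722 to 3095 higher and 110 to 2653 lower. The lowest counts came without both of 953 and the highest without positive 960. In brain, leaving out the library that stood apart, input 960, raised the counts to 49 higher and 95 lower, and leaving out both fractions of 960 to 55 and 97. The counts over all genes rose too, from 2744 and 2359 to 4670 and 4642 without input 960 and to 4758 and 4860 without both fractions. Leaving out brain input 421 or 953 gave 17 higher in each case and 18 and 14 lower. Without brain positive 421, 953 or 960 there were 15, 12 and 21 higher and 9, 12 and 19 lower. Over all genes, leaving out 1 of these inputs or positives gave 2014 to 2354 higher and 1005 to 1652 lower. Without both brain fractions of 421 there were 7 higher and 0 lower by edgeR, where 14 were lower at an unadjusted p under 0.05, and 1502 and 215 of all genes were called. Without both of 953 there were 5 higher and 0 lower, with 15 lower at an unadjusted p under 0.05, and 1291 and 164 of all genes were called. With the replicate number as a block the brain counts were 22 higher and 20 lower, beside 2504 and 1663 of all genes.

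There were 4 members called higher in all 3 tissues, Zfp36, Zfp710, Zfp52 and Zfp330, and 7 lower in all 3, while 127 were called in none. These are 1.54%, 2.70% and 49.0% of the members, beside 7.13%, 2.91% and 35.1% of the 10505 genes listed in all tables. Zfp710, a C2H2 protein with no KRAB box, stood at 25.9, 19.8 and 19.1 CPM in choroid input and at 66.3, 48.5 and 55.5 CPM in choroid positive, a log2 fold change of 1.40 ± 0.22 (edgeR adjusted p = 0.00141). In brain it was at 26.7, 23.7 and 14.2 CPM in input and 54.4, 58.9 and 49.8 CPM in positive, or 1.32 ± 0.24 log2 (edgeR adjusted p = 0.0057; 1.11 without brain input 960). The positive libraries were higher than every input in both. In retina its level was lower, at 9.98, 7.80 and 10.7 CPM in input and 12.6, 16.2 and 16 CPM in positive, with 0.66 ± 0.19 log2 (edgeR adjusted p = 0.0322). The retina call ended without any of the 3 retina inputs or without positive 953 (adjusted p = 0.0661 to 0.136).

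Zfp52, a KRAB protein with 14 C2H2 motifs, was low in every input. In brain it stood at 5.19, 5.74 and 6.39 CPM in input and at 15.2, 21.2 and 16.4 CPM in positive (1.61 ± 0.20 log2, edgeR adjusted p = 0.00113). In retina it stood at 5.45, 6.73 and 6.75 CPM in input and at 11.6, 12.5 and 12.0 CPM in positive (0.93 ± 0.18 log2, edgeR adjusted p = 0.00596). All 3 positive libraries lay above all 3 inputs in each tissue. In choroid the values were 9.22, 6.79 and 4.14 CPM in input and 15.4, 11.7 and 14 CPM in positive (1.03 ± 0.35 log2, edgeR adjusted p = 0.0413). That choroid call ended without input 953 or 960 or any of the 3 positive libraries (adjusted p = 0.0603 to 0.114), and with scaling by library totals (0.80, adjusted p = 0.102). Zfp330, a nucleolar protein, had the smallest changes of the 4, at 0.58 ± 0.16, 0.37 ± 0.12 and 0.55 ± 0.13 log2 in choroid, retina and brain (edgeR adjusted p = 0.0222, 0.0449 and 0.014). Its inputs of 28.6 to 36.7 CPM lay under its positive libraries of 39.6 to 55.4 CPM throughout. Each of its calls ended without 1 library: any choroid input (adjusted p = 0.052 to 0.0957), any retina input or retina positive 953 (0.105 to 0.17), and brain input 421 or brain positive 421 or 953 (0.0617 to 0.0709). With a replicate block its retina call also ended (adjusted p = 0.0737), and with library totals its choroid call (0.35, adjusted p = 0.124).

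The 7 members called lower in all 3 tissues were Zfp799, Zfp654, Zfp644, Zfp763, Zfp354c, Zfp148 and Zfp536. Zfp654 stood at 146.5, 146.2 and 139.2 CPM in retina input and 79.3, 94.8 and 89.7 CPM in retina positive. Its log2 fold changes were -1.02 ± 0.23 in choroid, -0.71 ± 0.11 in retina and -0.94 ± 0.16 in brain (edgeR adjusted p = 0.00864, 0.00144 and 0.00463), and no single library ended a call. Zfp799 had -1.45 ± 0.40, -0.81 ± 0.14 and -1.29 ± 0.23 log2 (edgeR adjusted p = 0.0205, 0.00387 and 0.00459), and its choroid call ended without input 953 or positive 953 or 960 (adjusted p = 0.0527 to 0.0697). Zfp536, a repressor of neuronal differentiation, stood at 38.0, 22.8 and 25.1 CPM in choroid input and at 7.49, 5.87 and 7.63 CPM in choroid positive. Its log2 fold changes were -2.03 ± 0.29, -0.40 ± 0.12 and -0.85 ± 0.24 (edgeR adjusted p = 0.000956, 0.0285 and 0.0275). The retina call ended without any 1 retina input (adjusted p = 0.0935 to 0.116), and the brain call with the block (0.0701) and without brain input 421 or 953 or any brain positive (0.0595 to 0.0928).

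Zfp148, a transcription factor of GC-rich promoters also called ZBP-89, had the smallest decreases of the 7 in choroid and brain. In choroid, retina and brain its values were -0.52 ± 0.17, -0.70 ± 0.11 and -0.46 ± 0.13 log2 (edgeR adjusted p = 0.0386, 0.00178 and 0.0272). Zfp644 had -0.99 ± 0.25, -0.65 ± 0.10 and -0.62 ± 0.18 log2 (edgeR adjusted p = 0.0138, 0.00125 and 0.0306). Zfp763 had -0.78 ± 0.24, -0.72 ± 0.11 and -0.58 ± 0.17 log2 (edgeR adjusted p = 0.0307, 0.00211 and 0.0339), and Zfp354c, a KRAB protein, had -1.36 ± 0.30, -0.49 ± 0.10 and -0.96 ± 0.22 log2 (edgeR adjusted p = 0.0079, 0.0088 and 0.0129). In no tissue did the input and positive libraries of these 7 overlap, but all except Zfp148 were listed in choroid through the input alone. The brain calls of Zfp148 (adjusted p = 0.0628 to 0.114), Zfp644 (0.0535 to 0.105) and Zfp763 (0.0737 to 0.134) ended without brain input 421 or 953 or any brain positive, and that of Zfp354c without brain positive 421 (0.0573). Those of Zfp148 and Zfp763 also ended with the block (0.0746 and 0.0757). In choroid the calls of Zfp148 ended without any input or positive 953 or 960 (0.0558 to 0.142) and that of Zfp763 without any input or positive 421 or 960 (0.053 to 0.0876). The retina call of Zfp354c ended without retina input 953 (0.0552).

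Zfp691, a C2H2 protein with 7 fingers, moved in opposite directions. In choroid it stood at 62.7, 100.3 and 110.7 CPM in input and fell to 19.5, 25.9 and 27.6 CPM in positive, a log2 fold change of -1.92 ± 0.26 (edgeR adjusted p = 0.000775). In brain it stood at 6.09, 6.46 and 3.47 CPM in input and at 21.3, 22.8 and 17.9 CPM in positive, or 1.92 ± 0.26 log2 (edgeR adjusted p = 0.00162; 1.72 without brain input 960). The positive levels of the tissues were thus close, and the inputs were not. Zfp691 was listed in brain through the positive fraction alone, with 32 counts in its lowest input library. In retina it was at 17.2, 15.3 and 15.7 CPM in input and 22.7, 30.1 and 20.7 CPM in positive (0.60 ± 0.17 log2, edgeR adjusted p = 0.0276), a call that ended without any retina input or without retina positive 953 (adjusted p = 0.0715 to 0.111). The difference in enrichment was -3.65 ± 0.35 log2 for choroid minus brain (edgeR adjusted p = 1.84e-06) and -2.49 ± 0.34 log2 for choroid minus retina (edgeR adjusted p = 7.46e-05). Retina minus brain was -1.16 ± 0.34 log2 (edgeR adjusted p = 0.0326), which did not pass without any retina input, retina positive 421 or 960, or brain positive 421 or 953 (adjusted p = 0.0591 to 0.0842). Markers of retinal pigment epithelium moved with Zfp691 in choroid, at 8849 to 14810 CPM summed over 5 of 6 markers in input and 2346 to 5476 CPM in positive, and their part in the result was not tested.

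Another 9 members were called lower in choroid and higher in retina, among them Zfp692, Zfp579, Zfp598, Zfp783, Zfp641, Zfp446, Zfp40 and Zfp672. With Zfp691 they made up 3.86% of the members, beside 1.94% of all genes listed in the 3 tables. They were also all the members called higher in any 1 tissue and lower in another. That wider pattern held 4.09% of all genes, so opposite calls were not more frequent among the members. Of those named, Zfp579 and Zfp598 reached the listing minimum in both choroid fractions and the others only in the input. Zfp579 stood at 53.5, 64.0 and 67.7 CPM in choroid input and 25.4, 17.9 and 30.5 CPM in choroid positive, and at 21.5, 24.2 and 22.8 CPM in retina input and 55.1, 48.2 and 38.7 CPM in retina positive. The fractions were apart in each tissue, in opposite order, at -1.33 ± 0.23 and 1.05 ± 0.15 log2 (edgeR adjusted p = 0.00267 and 0.00113), and the difference of -2.35 ± 0.26 log2 was called (edgeR adjusted p = 1.04e-05). In brain its fractions overlapped (-0.03 ± 0.15 log2, edgeR adjusted p = 0.881). Zfp598, a ubiquitin ligase that senses collided ribosomes, was at 69.6, 71.0 and 67.5 CPM in retina input and 180.1, 132.1 and 90.0 CPM in retina positive (0.95 ± 0.22 log2, edgeR adjusted p = 0.0116). Without retina input 960 or positive 953 that call ended (adjusted p = 0.052 and 0.0516), and its choroid decrease of -0.44 ± 0.15 log2 (edgeR adjusted p = 0.0493) ended without any 1 choroid library (0.0747 to 0.122).

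Zfp692 was called in retina at 1.29 ± 0.28 log2 (edgeR adjusted p = 0.00949), with 45.9, 39.9 and 40.5 CPM in input and 155.1, 91.6 and 62.9 CPM in positive, and in choroid at -0.88 ± 0.28 log2 (edgeR adjusted p = 0.0347). Its retina positives were widely spread, and the choroid call ended without any input or without positive 953 or 960 (adjusted p = 0.0581 to 0.107). Zfp783 had -1.68 ± 0.38 log2 in choroid and 0.78 ± 0.15 in retina (edgeR adjusted p = 0.00855 and 0.00495). Zfp641 had -1.53 ± 0.40 log2 in choroid and 0.65 ± 0.12 in retina (edgeR adjusted p = 0.0165 and 0.00374), the first of which ended without choroid input 953 or positive 953 (0.0651 and 0.0569). Zfp446 had -1.93 ± 0.43 log2 in choroid, 0.58 ± 0.17 in retina and -0.63 ± 0.18 in brain (edgeR adjusted p = 0.00793, 0.0291 and 0.0298). Its retina call ended without any retina input or positive 953 (0.0886 to 0.103), and its brain call with the block (0.0817) or without brain input 421 or 953 or any brain positive (0.0598 to 0.124). The retina increases of Zfp40 and Zfp672, 0.56 and 0.35 log2, each ended without any retina input or without retina positive 953, and for Zfp40 also without positive 421 (adjusted p = 0.0812 to 0.187). With the block both ended too (0.0578 and 0.0813). In choroid their log2 fold changes were -1.24 and -0.69 (edgeR adjusted p = 0.0234 and 0.0479). The choroid calls ended without input 421 or 953 for Zfp40 (0.0522 and 0.0729) and without any input or positive 421 or 953 for Zfp672 (0.0757 to 0.154).

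**Figure D3:**
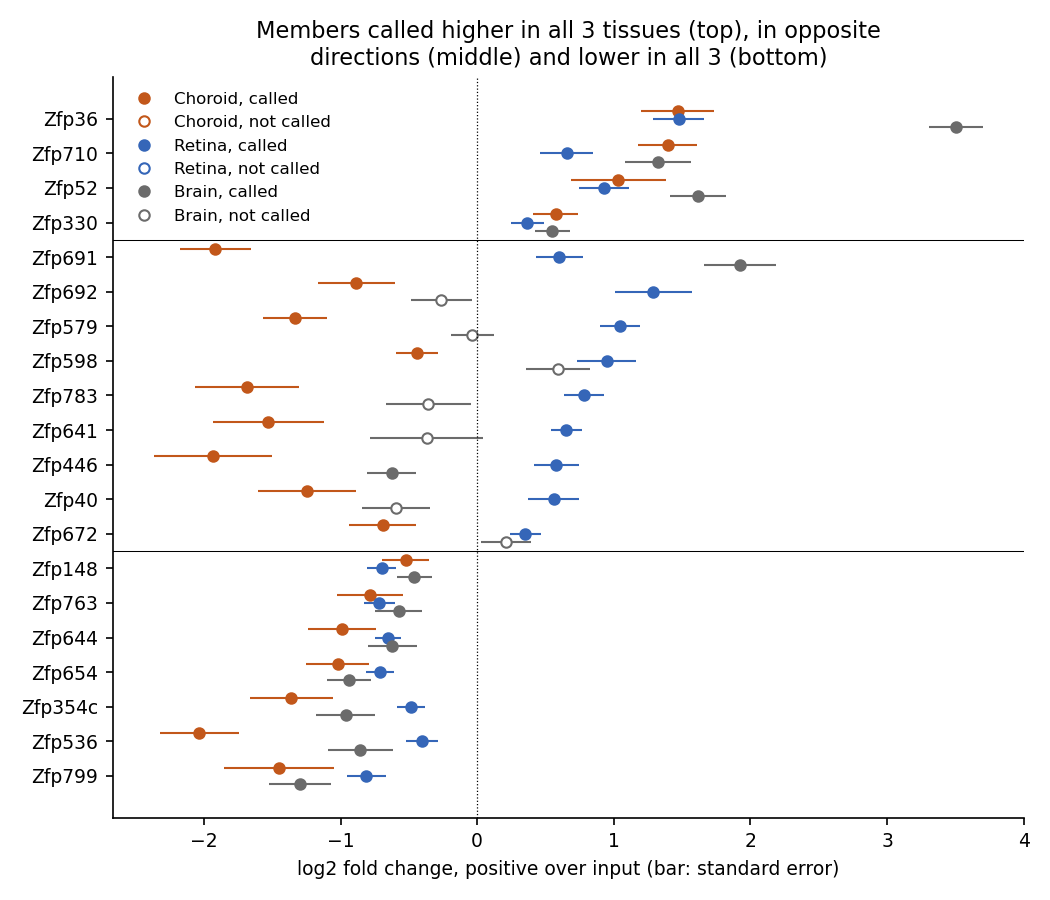
Log2 fold change of positive over input with its standard error, for members called higher in all 3 tissues (top), called higher in 1 tissue and lower in another (middle, 1 member not drawn) and called lower in all 3 (bottom). Filled points were called and open points were not. Zfp36 in brain lies farthest right at 3.50, and every member drawn in the middle group is negative in choroid and positive in retina.

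In choroid the other enriched members included Zfp511, Zfp954, Zfp622, Zfp830 and Zfp790. Zfp511 stood at 8.02, 8.67 and 8.68 CPM in input and 16.3, 23.5 and 18.7 CPM in positive (1.20 ± 0.25 log2, edgeR adjusted p = 0.00592). Zfp622, a factor of 60S ribosomal subunit maturation, stood at 46.0, 45.1 and 43.8 CPM in input and 67.4, 94.2 and 95.8 CPM in positive (0.93 ± 0.19 log2, edgeR adjusted p = 0.00476). In both the inputs were close to each other and the positive libraries all lay above them. Zfp954 (0.96), Zfp830 (0.79) and Zfp790 (0.74) had smaller log2 changes at adjusted p = 0.0188 to 0.0288, and each ended with library totals (adjusted p = 0.0519 to 0.11). Each also ended without 1 library: choroid input 953 or 960 or positive 953 for Zfp954 (0.0525 to 0.081) and Zfp790 (0.089 to 0.095), and input 421 or 960 or positive 953 for Zfp830 (0.0573 to 0.0677).

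The largest decreases in choroid were those of Zfp365, Zfp385b and Zfp612. Zfp365 was at 33.4, 22.5 and 21.3 CPM in input and 8.85, 1.85 and 3.39 CPM in positive (-2.38 ± 0.49 log2, edgeR adjusted p = 0.00543). Zfp385b was at 43.9, 74.3 and 72.8 CPM in input and 8.40, 12.4 and 19.5 CPM in positive (-2.28 ± 0.35 log2, edgeR adjusted p = 0.00129). Zfp612 was at 28.9, 44.2 and 39.0 CPM in input and 6.13, 9.88 and 11 CPM in positive (-2.08 ± 0.29 log2, edgeR adjusted p = 0.000874). Zfp811 and Zfp286 had log2 fold changes of -1.95 ± 0.40 and -1.70 ± 0.31 (edgeR adjusted p = 0.00525 and 0.00313). All 5 were listed in choroid through the input alone. Their low positive counts (6 in the lowest library for Zfp365, 26 for Zfp612) follow in part from that rule and from the low totals of the choroid positives. The marker sums of some other cells were also lower in choroid positive. They were those of retinal pigment epithelium, 5 of 6 measured, with the values given for Zfp691, and of astrocytes and Müller glia, all 6 measured. The latter stood at 5298 to 6323 CPM in input and 2028 to 2564 CPM in positive. Rlbp1 is in both lists, so these sums are not separate. Neuron markers, 4 of 6 measured, overlapped, at 95.7 to 214 CPM in input and 109 to 178 CPM in positive. The part of these cells was not tested.

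In retina, Zfp414 stood at 29.6, 26.3 and 27.3 CPM in input and 79.0, 66.6 and 44.5 CPM in positive (1.19 ± 0.20 log2, edgeR adjusted p = 0.00264), and Zfp653 at 26.6, 24.8 and 21.9 CPM in input and 53.7, 45.7 and 33.5 CPM in positive (0.85 ± 0.18 log2, edgeR adjusted p = 0.00823). In both genes positive 960 was the lowest of its group, as it was for Zfp598, Zfp692 and Zfp579. The endothelial marker sum was also lowest in that library, at 1772 CPM beside 2224 and 3260 CPM. The photoreceptor sum was highest there, at 32640 CPM beside 20200 and 27340 CPM, as was that of microglia and macrophages. The order was not the same for all members called higher in retina, since Zfp710 and Zfp52 were lowest in positive 421. The part of these cells was not tested. The largest decrease was that of Zfp871, at 278.7, 304.0 and 330.6 CPM in input and 148.7, 142.2 and 126.8 CPM in positive (-1.13 ± 0.12 log2, edgeR adjusted p = 0.000151). Zfp748 (-1.11), Zfp770 (-0.90), Zfp563 (-0.83), Zfp111 (-0.76) and Zfp292 (-0.72) were also called on the log2 scale with adjusted p from 0.000379 to 0.00429. Zfp87 had -0.83 ± 0.26 log2 (edgeR adjusted p = 0.0396), and its call ended without any retina input (0.0968 to 0.122). Zfp748 and Zfp87 were listed in retina through the input alone, with 45 and 32 counts in the lowest positive library. The direction of their difference may follow in part from the listing rule and from the lower totals of the retina positives.

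In brain, Zfp217, a C2H2 protein of corepressor complexes, had the value next to that of Zfp36. It was at 3.87, 3.99 and 2.71 CPM in input and 13.9, 20.4 and 17.6 CPM in positive, a log2 fold change of 2.27 ± 0.24 (edgeR adjusted p = 0.000535; 2.13 without input 960). Its enrichment was lower in retina than in brain (-1.74 ± 0.45 log2, edgeR adjusted p = 0.0174), a call that ended without brain positive 953 (adjusted p = 0.0517). Zfp764 was at 4.11, 4.85 and 4.88 CPM in input and 12.5, 11.6 and 10.8 CPM in positive (1.34 ± 0.18 log2, edgeR adjusted p = 0.00164). Both were listed in brain through the positive fraction alone, with 25 and 45 counts in the lowest input library. The direction of their difference may follow in part from the rule. The minimum acts on counts, and brain input 960 held 9596720 in total, beside 26555188 and 32064311 in the other brain inputs. For Zfp764 that library was not the lowest input in CPM. In retina Zfp217 was listed through the input alone, with 38 counts in its lowest positive library. The direction of its difference between these tissues may thus follow in part from the rule too. Zfp740 was at 90.1, 89.0 and 60.5 CPM in input and 148.4, 152.5 and 142.9 CPM in positive (0.89 ± 0.19 log2, edgeR adjusted p = 0.00972), and its retina increase of 0.49 ± 0.11 log2 (edgeR adjusted p = 0.011) ended without any retina input (0.0505 to 0.0667). Among the decreases, Zfp365 was at 400.7, 403.0 and 272.7 CPM in input and 154.2, 124.5 and 187.7 CPM in positive (-1.21 ± 0.23 log2, edgeR adjusted p = 0.00671), and Zfp462, a chromatin factor of early development, had -1.0 ± 0.17 log2 (edgeR adjusted p = 0.00417). Neuron markers moved with them, at 4838 to 5160 CPM summed over 5 of 6 markers in input and 2457 to 3155 CPM in positive, and their part was not tested. Zfp329 (-0.95), Zfp286 (-0.90) and Zfp605 (-1.18) were also called on the log2 scale (edgeR adjusted p = 0.0045, 0.00631 and 0.0199), the last not without brain positive 421 or 953 (0.0784 and 0.0791).

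The members did not all behave alike when grouped by protein type, which is given as a description. In choroid the median log2 fold change went from 0.07 for 11 members with no C2H2 motif through -0.12, -0.32 and -0.43 for those with 1 to 4, 5 to 9 and 10 to 14 motifs to -0.54 for 48 members with 15 or more. In brain the medians were 0.25, 0.00, -0.07, -0.18 and -0.32 in the same order. In retina they were -0.07, 0.07, -0.03, -0.10 and -0.21. The group with no C2H2 motif holds the 3 CCCH genes. Members with a KRAB A box had medians of -0.49, -0.10 and -0.22 in choroid, retina and brain, and those without it -0.32, -0.08 and 0.02. Among the 126 KRAB members 2.38%, 4.76% and 4.76% were called higher in choroid, retina and brain, and among the 131 others 5.34%, 14.5% and 16.8%, where 21.1%, 18% and 21.2% of all genes were. Called lower were 21.4%, 13.5% and 11.1% of the KRAB members and 22.9%, 19.8% and 14.5% of the others, where 20.9%, 13.7% and 18.3% of all genes were. Level moved with the calls too: in choroid 37 of 119 members at 30 CPM or more were called lower, 21 of 122 at 10 to 30 CPM and 1 of 18 under 10 CPM, or 31.1%, 17.2% and 5.56%, beside 20.3%, 15.2% and 23% of all genes at those levels.

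**Figure D4:**
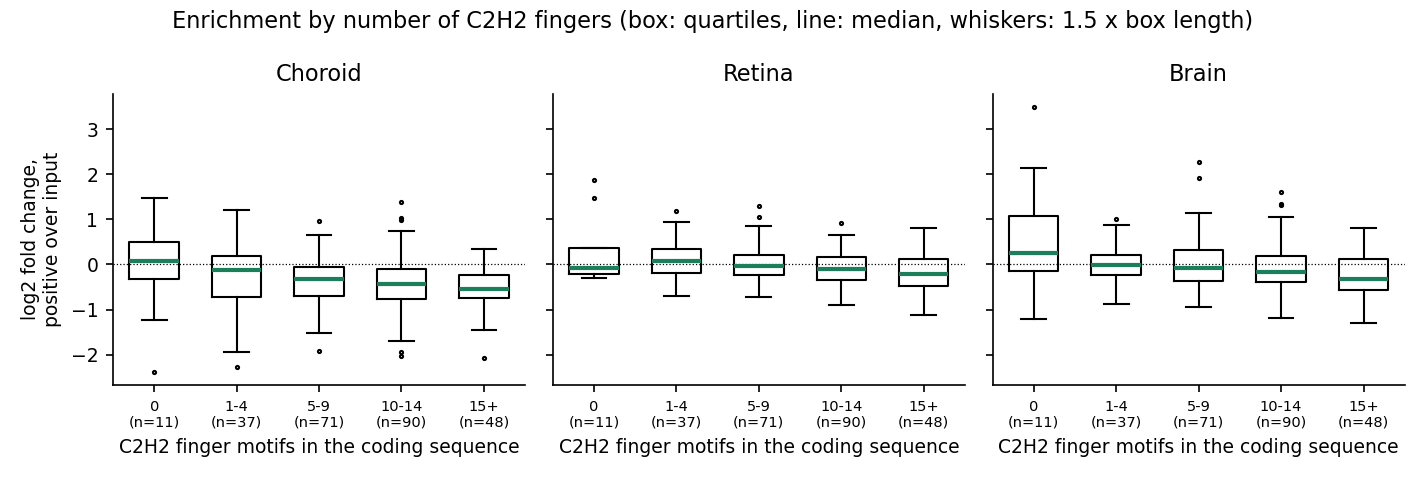
Log2 fold change of positive over input by the number of C2H2 motifs in the coding sequence, in boxes of quartiles with the median in green. The medians fall from 0.07 to -0.54 in choroid and from 0.25 to -0.32 in brain between members with no motif and members with 15 or more.

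The corepressors with which KRAB proteins work were measured too. Of 18 KRAB corepressor genes measured in choroid, among them Trim28, Setdb1 and the HP1 genes, 5 were called higher (27.8%, beside 21.1% of all genes) and 2 lower (11.1%, beside 20.9%), with a median log2 fold change of 0.14. In retina 1 of 18 was higher and 3 lower (median 0.06), and in brain 4 of 17 were higher and 1 lower (median 0.11).

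For most members the enrichment did not pass the test of a difference between tissues. For choroid minus brain, 8 were called higher and 24 lower, against 12.2% and 12.3% of all 10505 genes, or 3.09% and 9.27% of the members. With library totals the counts were 2 and 59, and the median over all genes moved from 0.08 to -0.26. For retina minus brain, 17 (6.56%) were higher and 8 (3.09%) lower, against 8.33% and 4.97% of all genes, and with library totals 13 and 10. For choroid minus retina, 7 (2.70%) were higher and 48 (18.5%) lower, against 10.9% and 18% of all genes, and with library totals 2 and 72, with the median over all genes moving from -0.07 to -0.33. Besides the genes above, choroid enrichment exceeded that of brain for Zfp954 (1.25 ± 0.29 log2, edgeR adjusted p = 0.00502) and Zfp511 (1.22 ± 0.27 log2, edgeR adjusted p = 0.00328), and that of retina for Zfp472 (1.55 ± 0.33 log2, edgeR adjusted p = 0.00242) and Zfp622 (1.10 ± 0.21 log2, edgeR adjusted p = 0.00112). It was lower than that of brain for Zfp385a (-1.52 ± 0.35 log2, edgeR adjusted p = 0.00487), which stood at 141.5, 251.9 and 304.4 CPM in choroid input and 82.1, 86.4 and 112.3 CPM in choroid positive.

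Single libraries moved these counts as well. For choroid minus brain there were 3 higher and 51 lower without brain input 960, 5 and 55 without choroid positive 421, 5 and 42 without positive 960, 3 and 33 without positive 953, and 2 and 38 without choroid input 960. Leaving out choroid input 421 gave 5 and 33, and leaving out choroid input 953 gave 5 and 18. Over all genes these settings gave 622 to 981 higher and 1131 to 2077 lower. For retina minus brain there were 14 higher and 24 lower without brain input 960, and 8 and 4 without retina input 421 or 953. There were 8 and 3 without brain positive 421, 9 and 4 without brain positive 953, and 11 and 5 without retina input 960 or retina positive 953. Over all genes the settings for retina minus brain gave 429 to 812 higher and 319 to 1571 lower. For choroid minus retina, 12 were higher without choroid input 421 and 11 without choroid positive 953 or 960, beside 1114, 1006 and 1139 of all genes.

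Set side by side, the positive fractions of retina and brain differed over most of the members. In retina positive against brain positive, 175 of 259 (67.6%) were called higher and 14 (5.41%) lower, where 32.1% and 31.0% of all genes were, and the median log2 fold change was 0.81 over the members and -0.01 over all genes. With any 1 library left out, 157 to 169 were higher. The inputs of these tissues differed in the same direction. Over all 18 libraries, the 3 retina inputs were all above the 3 brain inputs for 177 members and all below for 23, or 68.3% and 8.88%, beside 31.3% and 40.4% of all genes, and the median difference was 0.69 log2 over the members and -0.15 over all genes. Photoreceptor markers made up 20200 to 32640 CPM of the retina positives as given above, and the part of other cells in the difference was not tested.

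Zfp593, a factor of 60S ribosomal subunit maturation, had the highest value of retina over brain. It stood at 130.4, 119.8 and 108.9 CPM in retina positive and at 10.6, 11.3 and 13.1 CPM in brain positive (3.36 ± 0.18 log2, edgeR adjusted p = 4.53e-08). Between fractions it stood at 0.24 ± 0.11 log2 over retina input and -0.03 ± 0.25 log2 over brain input, neither called (edgeR adjusted p = 0.111 and 0.931). Zfp641 (3.10), Zfp654 (3.03), Zfp488 (2.91) and Zfp446 (2.86) followed on the log2 scale with adjusted p from 9.68e-08 to 3.53e-06. Zfp488, which promotes oligodendrocyte differentiation, was spread in retina positive, at 238.3, 195.3 and 104.4 CPM, beside 19.7, 23.7 and 28.0 CPM in brain positive.

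The 14 members called lower in retina than in brain included the enriched genes Zfp36, Zfp36l1 and Zfp710. Zfp710 had the lowest value (-1.78 ± 0.18 log2, edgeR adjusted p = 4.63e-06), at 13.3, 17.3 and 16.9 CPM in retina positive and 54.7, 58.9 and 50.3 CPM in brain positive. Zfp622 (-1.20), Zfp358 (-1.17) and Zfp771 (-1.14) were the others among the 5 lowest on the log2 scale (adjusted p from 6.51e-05 to 0.000105). That count was 8 without brain positive 421 or 953, and 9 without retina positive 953 or 960 or brain positive 960.

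**Figure D5:**
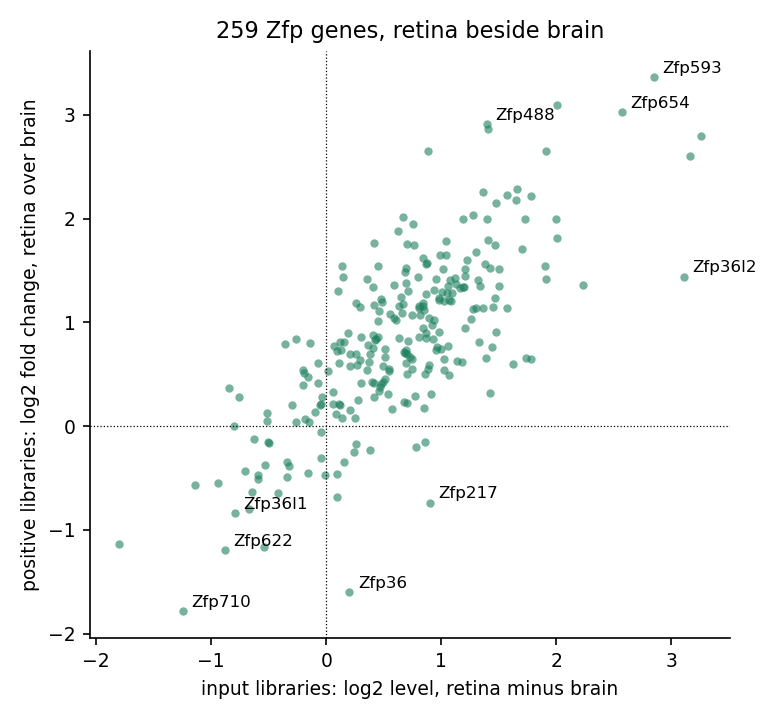
Each point is 1 of the 259 Zfp genes, with the log2 difference between retina and brain inputs (18-library scale) on the horizontal axis and the log2 fold change of retina over brain positives (9-library scale) on the vertical axis. Most members lie in the upper right, and Zfp36 and Zfp217 lie below 0 on the vertical axis although their inputs were not lower in retina.

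The choroid positives lay nearer to those of brain than to those of retina in the median over the members. Against brain positive, 15 members (5.79%) were called higher and 60 (23.2%) lower, where 23.1% and 23.8% of all genes were, with medians of -0.24 and 0.03. The count of 15 was 9 without brain positive 421, 953 or 960. Against retina positive, 11 (4.25%) were called higher and 188 (72.6%) lower, where 32.9% and 39.1% of all genes were, with medians of -1.11 and -0.11, and 175 to 187 were lower with any 1 library left out. Library totals moved the medians over all genes to -0.14 and -0.32 in these comparisons. The comparisons of positives share libraries, so the retina positives enter both of the large counts.

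Zfp503, a transcriptional repressor also called Nolz1, was the member highest in choroid over brain. It stood at 68.3, 60.8 and 67.6 CPM in choroid positive, 24.6, 27.5 and 27.6 CPM in retina positive and 11.4, 13.4 and 10.3 CPM in brain positive. No 2 tissues overlapped, and choroid exceeded brain by 2.49 ± 0.17 log2 (edgeR adjusted p = 1.95e-07) and retina by 1.30 ± 0.17 log2 (edgeR adjusted p = 1.97e-05). Zfp503 was not called in any tissue between fractions, with -0.08 ± 0.17, -0.20 ± 0.13 and -0.30 ± 0.17 log2 in choroid, retina and brain (edgeR adjusted p = 0.723, 0.262 and 0.216), and its choroid inputs were 2.15 higher on the log2 scale than its brain inputs. Zfp217 stood at 41.4, 48.8 and 21.6 CPM in choroid positive and at 14, 20.4 and 17.8 CPM in brain positive (1.12 ± 0.34 log2, edgeR adjusted p = 0.0156), a call that ended without choroid positive 953 or brain positive 421 (adjusted p = 0.0752 and 0.0666). Zfp568 (1.20) and Zfp472 (1.18) were the other high members on the log2 scale (edgeR adjusted p = 0.00644 and 0.00444).

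Zfp365 was the lowest member in choroid, with 9.44, 1.95 and 3.61 CPM in choroid positive beside 154.9, 124.5 and 189.6 CPM in brain positive and 181.9, 317.2 and 340.2 CPM in retina positive. The tissues were far apart, at -4.86 ± 0.42 log2 against brain and -5.70 ± 0.43 log2 against retina (edgeR adjusted p = 1.1e-06 and 1.59e-07). Zfp612 (-2.12), Zfp523 (-1.54), Zfp354c (-1.47) and Zfp428 (-1.47) followed against brain on the log2 scale (adjusted p from 2.9e-05 to 0.000614). Against retina the next were Zfp641 (-4.36), Zfp692 (-4.11), Zfp488 (-3.81) and Zfp446 (-3.63) on the log2 scale, with adjusted p from 7.44e-08 to 1.27e-06. Neuron markers were also lowest in choroid positive, at 117 to 190 CPM over the 4 measured. They stood at 2204 to 2830 CPM in brain positive and 1741 to 2882 CPM in retina positive. The brain and retina ranges overlapped, whereas Zfp641, Zfp488 and Zfp446 were called higher in retina positive than in brain positive. The part of neurons was not tested. Zfp524 was among the 5 highest in choroid against retina, after Zfp36, Zfp710, Zfp217 and Zfp36l1, at 1.54 ± 0.27 log2 (edgeR adjusted p = 0.000212).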

How the data were processed

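Gene tables for choroid, retina and brain were deposited with expected counts per gene, which need not be whole since reads can be split, and with log2 values. The deposited log2 values are, as tested on the files, each library's counts divided by 1 factor minus the median of the 3 inputs, and were not used for tests. DESeq and the mm10 build are named in the submitters' processing notes. No source used here gives the aligner, the counter or whether strand was used. Expected counts were rounded, and edgeR 4.0.16 in R 4.3.3 (TMM, quasi-likelihood F test, Benjamini-Hochberg over all genes of the fit) compared positive with input within a tissue, the differences between tissues over 18 libraries, and the 9 positive libraries. Totals are given as deposited. DESeq2 1.42.0, library totals, a mean of at least 10 CPM, a replicate block, 1 fit of all libraries, a 2-fold minimum and leaving libraries out were the alternatives. The steps were tested on simulated data.

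The number pairs input with positive of a tissue, since per the labels' protocols both come from 1 lysate. Deviations of same-numbered fractions correlated at 0.672, 0.276 and 0.588 in choroid, 0.117, 0.0907 and -0.00316 in retina, and 0.169, 0.000957 and 0.0504 in brain. The fit without the block was the main one.

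Members and gene lists were chosen with earlier results of these data known. The members named are the 3 CCCH genes, the 8 highest and 8 lowest called members per tissue (mean of at least 5 CPM, fractions not overlapping), those called in all 3 tissues or in opposite directions, the 5 highest and 5 lowest per other comparison, and the 10 highest levels. Fingers and KRAB boxes were found by pattern in GENCODE M21 coding sequences, with 250 members matched by Ensembl ID, 8 by symbol and 1 unmatched. The values of 1 member that this rule names are not reported here.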

Additional observations from a re-analysis of the deposited data

Results flagged for a closer look

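The enrichment of a member, positive over input, differed between tissues by the interaction test over 18 libraries in the results below, given as the log2 difference. They are the 5 highest and 5 lowest called members at a mean of at least 5 CPM in each comparison, together with the CCCH genes called there. Further members were called and are not listed, so the order below is not a ranking of all of them. The comparisons share libraries, and no explanation was tested.

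Enrichment in choroid was lower than in brain for Zfp691 (-3.65), Zfp36 (-1.86), Zfp36l1 (-1.54), Zfp385a (-1.52), Zfp105 (-1.51) and Zfp36l2 (-1.40). It was higher for Zfp954 (1.25), Zfp511 (1.22), Zfp667 (1.02), Zfp281 (0.97) and Zfp329 (0.73). The call of Zfp329 ended without 1 of 10 of the 12 libraries, that of Zfp281 without 1 of 7, and that of Zfp667 without choroid input 960 or any choroid positive library.

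Enrichment in retina was lower than in brain for Zfp36 (-1.88), Zfp36l2 (-1.75), Zfp217 (-1.74), Zfp691 (-1.16) and Zfp146 (-1.04). It was higher for Zfp692 (1.69), Zfp488 (1.43), Zfp446 (1.36), Zfp414 (1.34) and Zfp40 (1.31). The calls of Zfp40 and Zfp146 each ended without 1 of 4 libraries (edgeR adjusted p = 0.0536 to 0.0634 for Zfp40 and 0.0511 to 0.0566 for Zfp146). Zfp217 was listed through the input alone in retina and through the positive fraction alone in brain, so its direction may follow in part from that.

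Enrichment in choroid was lower than in retina for Zfp691 (-2.49), Zfp446 (-2.49), Zfp783 (-2.43), Zfp579 (-2.35), Zfp612 (-2.27) and Zfp36l1 (-1.42). It was higher for Zfp472 (1.55), Zfp622 (1.10), Zfp954 (1.01), Zfp319 (0.97) and Zfp790 (0.95). The call of Zfp319 ended without 1 of 5 libraries (edgeR adjusted p = 0.053 to 0.064). With library totals the calls of Zfp954 and Zfp790 ended (0.74 and 0.69, adjusted p = 0.058 and 0.0598).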

How the results depend on the processing

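Of 2536 values of single members under the alternatives, 2186 kept their direction and side of the threshold, 322 lost the call, 26 gained it and 2 reversed. The reversals were both of Zfp937 in brain, which was not called at -0.31 and was called higher at 0.46 without brain input 960 and at 0.32 without both brain fractions of 960. Its values with libraries left out ran from -0.64 to 0.46. Members called higher and lower are given in that order below, and the cause of each change was not tested unless the setting itself removes samples or small changes. With library totals, choroid positive against input had 4 called higher, choroid minus brain 2 and 59, and choroid minus retina 2 higher. Over all genes these were 1756, 547 and 2196, and 580. In 1 fit of all libraries there were 16 and 93 in choroid, 14 and 25 in retina and 78 lower in brain. Over all genes these were 2447 and 2612, 1443 and 676, and 3122. With DESeq2 there were 51 lower in brain, 38 lower for choroid minus brain, and 33 and 16 for retina minus brain. Over all genes these were 3103, 1646, and 1312 and 761. The replicate block gave 20 lower in brain, beside 1663 of all genes. Among the named members it ended the calls of Zfp148, Zfp536, Zfp446 and Zfp763 in brain, of Zfp40, Zfp330 and Zfp672 in retina and of Zfp329 for choroid minus brain, and it added Zfp36l1, Zfp106 and Zfp937 in choroid; it changed no other. With a minimum of 2-fold there were 4 and 31 in choroid, 5 and 2 in retina, 11 and 4 in brain, 3 and 14 for choroid minus brain, 11 and 5 for retina minus brain and 3 higher for choroid minus retina. For the positives that minimum gave 5 and 21 in choroid against brain, 111 and 5 in retina against brain and 7 higher in choroid against retina. No count over all genes at that minimum is given here, so its counts describe the members only. Leaving out libraries gave, for choroid, 1 to 10 higher and 13 to 60 lower, beside 1066 to 2575 and 906 to 2498 of all genes. For retina it gave 3 to 51 higher and 7 to 55 lower, beside 722 to 3095 and 110 to 2653 of all genes. For brain it gave 5 to 55 higher and 0 to 97 lower, beside 1291 to 4758 and 164 to 4860 of all genes. It gave 2 to 9 and 17 to 55 for choroid minus brain, 8 to 22 and 3 to 24 for retina minus brain, and 5 to 12 and 33 to 55 for choroid minus retina. Over all genes these were, in the same order, 622 to 1402 and 1093 to 2077, 429 to 1047 and 319 to 1571, and 834 to 1262 and 1527 to 1933. For the positives it gave 9 to 15 and 40 to 67 in choroid against brain, 157 to 169 and 8 to 12 in retina against brain, and 10 to 14 and 175 to 187 in choroid against retina. Over all genes these were, in the same order, 1740 to 2613 and 2054 to 2737, 2890 to 3274 and 2742 to 3197, and 3190 to 3462 and 3823 to 4183. The shallow choroid positive libraries, from 2649016 counts, limit what can be called for members at low level.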
